A study of Mus musculus with 6 samples.

Results

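Transcripts of 7 mouse genes whose human orthologs lie at fatty liver risk loci were followed by RNA-seq in libraries whose tissue is given as liver and whose cell type as hepatocyte: Hsd17b13, Hsd17b11, Tm6sf2, Mboat7, Gckr, Pnpla3 and Ppp1r3b. The members were chosen by name, and all 7 were found among the 46095 gene symbols of the deposited table. The libraries came from C57BL/6 mice given a high-fat diet for 26 weeks, 3 with beta-arrestin 1 knocked out (HFD-ARRB1-KO, libraries KO1 to KO3) and 3 wild type (HFD-WT, libraries WT1 to WT3). The diet was common to both groups, so no value describes a lean liver. The genotype labels of KO2 and KO3 read ARRB2-/- and ARRB3-/-, against ARRB1 in their titles and in the series text, and the grouping follows the titles. The sex of the mice, their age beyond the time on diet and the cells in which the gene was deleted are not stated in the labels.

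Fatty liver disease has a strong inherited part in people, and these genes act at different steps between carbohydrate, stored fat and secreted fat. HSD17B13 and PNPLA3 sit on lipid droplets, TM6SF2 helps to load fat onto very-low-density lipoprotein (VLDL), and MBOAT7 attaches arachidonic acid to lysophosphatidylinositol. GCKR takes part in the control of hepatic glucose use, and PPP1R3B brings protein phosphatase 1 to glycogen, which favours glycogen synthesis. The human links rest on inherited variants, while the values here are transcript levels.

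Values are FPKM, fragments scaled to gene length and to the fragments of the library. The number of reads assigned to genes, recovered from the FPKM steps, ran from 13354411 in KO1 to 33873322 in KO2. Arrb1, the deleted gene, had 0.918, 1.05 and 1.16 FPKM in KO1 to KO3, against 3.86, 22.7 and 16.9 FPKM in WT1 to WT3. These values rest on 91, 262 and 241 reads in the knockout libraries and 916, 4506 and 3652 reads in the wild-type libraries. Every library titled as knockout was below every wild-type library, also those whose genotype label names another gene, and WT1 stood well below WT2 and WT3. Of 12 hepatocyte markers, all were detected. Their summed level was 51370 to 59600 FPKM in knockout and 52500 to 62660 FPKM in wild type. By the limma test described below, 2 of them were called lower (Cps1 and Tat) and 0 higher, which is 16.7% of the list. Of all tested genes, 6.90% were called in either direction and 1.60% lower. The median log2 fold change of the list was -0.18, against 0.075 over all tested genes, with 8 values negative and 4 positive. In such material fewer cells of a type and less RNA per cell cannot be told apart.

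Of the 6 members that could be tested, 3 were higher in knockout and none was lower (limma on log2(FPKM + 1), adjusted p under 0.05). No member was lower at an unadjusted p under 0.05 either, and voom on the recovered reads also called 0 lower. The higher ones were Hsd17b13, Hsd17b11 and Mboat7. Over all 10633 tested genes, 5.30% were called higher and 1.60% lower. In either direction 6.90% were called, and the median log2 fold change was 0.075. The counts called in each gene or marker list are to be set beside these values. For 4 members, Gckr being the fourth, all knockout values lay above all wild-type values, an arrangement that 23.4% of tested genes showed. None of the members lay wholly below wild type, as 7.81% of tested genes did. Leaving out KO2 left 0 of the 3 calls, and leaving out any other library left 2. The members were not chosen independently of earlier results on these libraries, so the count is a description of these genes.

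**Figure D1:**
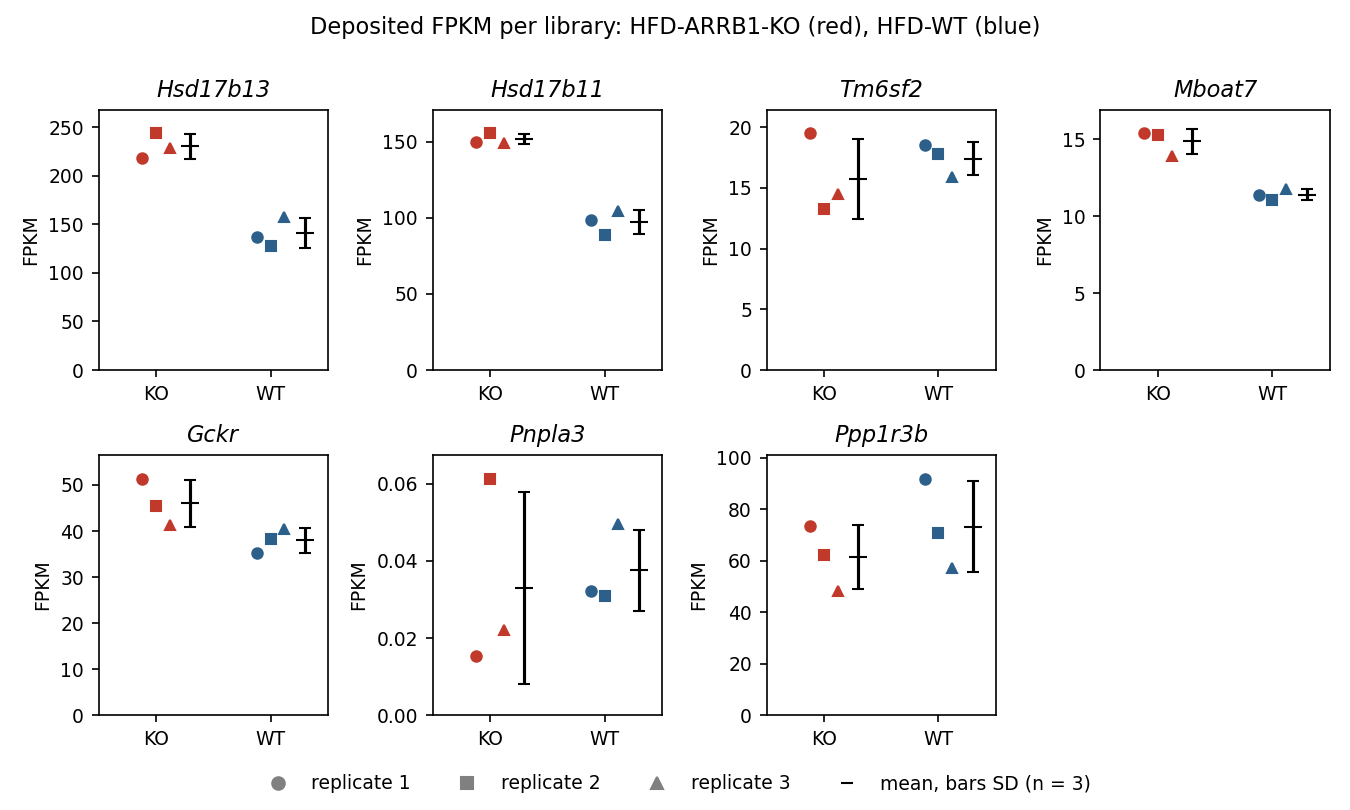
FPKM of each member in every library, with knockout libraries in red on the left and wild-type libraries in blue on the right of each panel, and the mean with SD (n = 3) as a black bar. The groups lie apart for Hsd17b13, Hsd17b11, Mboat7 and Gckr and overlap for Tm6sf2, Pnpla3 and Ppp1r3b.

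Hsd17b13 (chromosome 5, 103955440 to 103977410, minus strand, GRCm38) encodes a lipid droplet enzyme of the short-chain dehydrogenase family, for which retinol dehydrogenase activity has been described in the human protein. It was the most abundant member in both groups, at 218, 244 and 229 FPKM in KO1 to KO3 and at 137, 128 and 158 FPKM in wild type. The lowest knockout library was thus well above the highest wild-type library. The means were 231 ± 12.8 FPKM in knockout and 141 ± 15.2 FPKM in wild type (SD, n = 3 each). The log2 fold change was 0.71 ± 0.105 (SE; limma, adjusted p = 0.0127), a fold of 1.63 with a 95% interval from 1.38 to 1.93. An exact permutation test (two-sided) gave p = 0.1, and 3 against 3 libraries allow none smaller. The call was lost without KO2 (adjusted p = 0.0581, log2 fold change 0.67) and with no filter on low genes (adjusted p = 0.0511).

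Hsd17b11 (chromosome 5, 103989762 to 104021919, minus strand) encodes a related droplet-associated dehydrogenase and is the next gene along the chromosome, 12.4 kb from Hsd17b13. In mice its transcript is known to be induced by activators of the nuclear receptor PPAR-alpha. It was at 150, 155 and 149 FPKM in KO1 to KO3 and at 98.8, 88.6 and 104 FPKM in wild type. The groups did not overlap, and the spread within knockout was the narrowest of the members, with a coefficient of variation of 2.24%. The means were 152 ± 3.39 FPKM in knockout and 97.2 ± 7.89 FPKM in wild type (SD, n = 3 each). The log2 fold change was 0.64 ± 0.0900 (SE; limma, adjusted p = 0.0109; exact permutation p = 0.1), a fold of 1.56 with a 95% interval from 1.35 to 1.80. Without KO2 the adjusted p was 0.0530.

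Because these neighbours rose together, the sequence around each start site is shown, 250 bases before to 50 bases after it, from RefSeq on GRCm38.p6. Capitals mark matches on either strand to AGGTCA, a site bound by many nuclear receptors, and to CCAAT, the core of the CCAAT box. The first window is chr5:103977339-103977638 and the second chr5:104021747-104022046, both on the minus strand and written 5′ to 3′.
Hsd17b13: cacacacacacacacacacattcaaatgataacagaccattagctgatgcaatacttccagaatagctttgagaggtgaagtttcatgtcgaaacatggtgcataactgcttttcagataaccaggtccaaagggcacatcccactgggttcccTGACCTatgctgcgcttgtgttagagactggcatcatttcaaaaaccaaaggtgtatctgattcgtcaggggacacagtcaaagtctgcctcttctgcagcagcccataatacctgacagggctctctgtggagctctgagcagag
Hsd17b11: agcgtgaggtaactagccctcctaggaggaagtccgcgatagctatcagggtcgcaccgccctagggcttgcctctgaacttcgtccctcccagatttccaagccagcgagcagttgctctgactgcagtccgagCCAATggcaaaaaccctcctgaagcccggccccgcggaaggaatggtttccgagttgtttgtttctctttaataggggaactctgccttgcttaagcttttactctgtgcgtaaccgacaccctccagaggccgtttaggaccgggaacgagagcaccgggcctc
The Hsd17b13 window held 1 match to the nuclear receptor motif, on the opposite strand, and none to the CCAAT box. The Hsd17b11 window held 1 match to the CCAAT box and none to the nuclear receptor motif. The nuclear receptor motif was present in 16.3% and the CCAAT box in 37.4% of all 32851 promoter windows of this length.

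The TATA box TATAAA, found in 13.6% of windows, was in neither. The same held for the E box CACGTG, found in 7.2%.

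The GC box GGGCGG, found in 35.7% of windows, was in the Hsd17b11 window alone, at position -194 from the start. The STAT site TTCNNNGAA, found in 8.3%, was in neither. No motif of those searched was in both windows, and their content of G and C was 47% for Hsd17b13 and 57% for Hsd17b11.

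The FPKM ratio of Hsd17b13 to Hsd17b11 within a library is unchanged by any single scaling factor per library. It was 1.46, 1.57 and 1.54 in KO1 to KO3 and 1.39, 1.45 and 1.51 in wild type, so the groups overlapped. On the log2(FPKM + 1) scale it averaged 0.60 ± 0.0559 in knockout and 0.53 ± 0.0618 in wild type, a difference of 0.069 (SD, n = 3 each; exact permutation test, two-sided, p = 0.2). A difference between the rises of the pair was not detectable. The transcripts of Hsd17b11 shared no run of 50 bases with any other annotated gene, and 0.51% of the runs of Hsd17b13 did, none of them with Hsd17b11.

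Flanking the pair, Klhl8 lies 44.2 kb from Hsd17b13 and averaged 1.15 FPKM in knockout and 1.08 FPKM in wild type (limma, adjusted p = 0.886). Nudt9, which encodes a nucleotide pyrophosphatase, lies 24.4 kb beyond Hsd17b11 and averaged 26.7 FPKM in knockout and 20.4 FPKM in wild type. Its groups did not overlap, and it was not called (limma, adjusted p = 0.0834).

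Within the HSD17B family, 11 of 12 listed genes were in the table and 8 could be tested. Of these, 3 were higher and 1 was lower (50% called), with a median log2 fold change of 0.51, against 0.075 over all tested genes. Hsd17b13 and Hsd17b11 are among the 3 higher genes and count in that median. The other higher member was Hsd17b4, the multifunctional enzyme of peroxisomal beta-oxidation, at 357 ± 11.7 FPKM in knockout and 233 ± 23.0 FPKM in wild type (SD, n = 3 each; limma, adjusted p = 0.0173). The lower one was Hsd17b7, which acts in cholesterol synthesis, at 12.5 ± 3.37 FPKM in knockout and 42.4 ± 5.81 FPKM in wild type (limma, adjusted p = 0.00483). The family thus held enzymes of different pathways that moved in opposite directions. Hsd17b3 and Hsd17b14 were listed at 0 in every library, and Hsd17b1 was below the filter. Hsd17b6, which acts on retinol and steroids, averaged 128 ± 20.3 FPKM in knockout and 66.1 ± 28.0 FPKM in wild type without overlap and was not called (limma, adjusted p = 0.0629). Hsd17b7 passed with any 1 library left out, whereas Hsd17b4 lost its call without KO2 or WT2. Leaving out KO2 left 0 higher genes.

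Of 19 tested genes of retinol handling, 3 were higher and 1 was lower (21.1% called, median log2 fold change 0.15). Rdh16 rose to 55.8 ± 6.71 FPKM in knockout, against 27.1 ± 0.871 FPKM in wild type, and Rdh9 to 85.0 ± 12.5 FPKM in knockout, against 39.8 ± 1.12 FPKM in wild type (SD, n = 3 each; limma, adjusted p = 0.00394 and 0.00438). Both encode short-chain dehydrogenases with close copies in the mouse genome, so the split of reads between copies is uncertain. Cyp26b1, a retinoic acid hydroxylase, was at 5.56 ± 0.710 FPKM in knockout and 1.53 ± 0.648 FPKM in wild type (limma, adjusted p = 0.0114). Rdh11, a retinal reductase, fell to 11.4 ± 4.13 FPKM in knockout, against 35.5 ± 3.33 FPKM in wild type (limma, adjusted p = 0.00921). All 4 calls held with any 1 library left out.

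**Figure D2:**
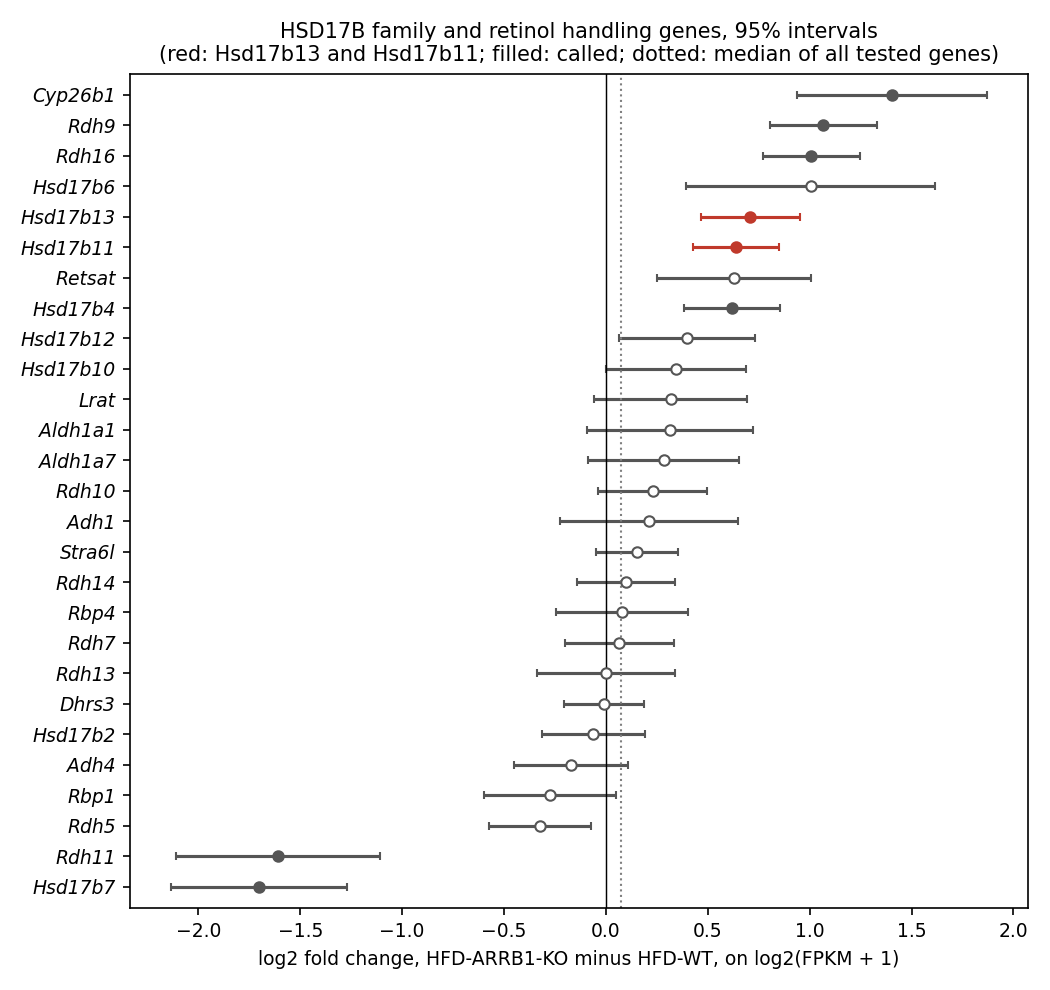
Log2 fold change (knockout minus wild type, on log2(FPKM + 1)) with 95% interval for each tested gene of the HSD17B family and of retinol handling. Filled points are called, red marks Hsd17b13 and Hsd17b11, and the dotted line is the median of all tested genes at 0.075. Hsd17b7 and Rdh11 stand at the lower end, below -1.

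Pnpla3 (chromosome 15, 84167837 to 84187236, plus strand) encodes a droplet lipase and acyltransferase. In mouse liver it is known as a low transcript that carbohydrate feeding induces through SREBP-1c, the product of Srebf1. It was at 0.0155, 0.0614 and 0.0221 FPKM in KO1 to KO3 and at 0.0323, 0.0308 and 0.0497 FPKM in wild type. These values rest on 1, 10 and 3 reads in knockout and 5, 4 and 7 reads in wild type. Summed over the libraries these were 14 reads in knockout and 16 reads in wild type. Relative to all reads in genes, the ratio of knockout to wild type was 1.02 with an exact 95% interval from 0.462 to 2.24, which covers counting error only. A change within that interval was not detectable at this depth. Pnpla3 was below the filter of a mean of 1 FPKM and was not tested with the others. With no filter its adjusted p was 0.904 by limma. On the log2(FPKM + 1) scale values this low all lie near 0, so that fit could hardly show a change. In the annotation its exons overlap the transcript Gm49513 on the same strand, so these few reads cannot be assigned to Pnpla3 with certainty.

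Among the genes of the PNPLA family and lipolysis, 10 of 13 listed passed the filter. Of these, 1 was higher and none was lower (10% called, median log2 fold change 0.28). Mgll, which cleaves monoglycerides, was at 144 ± 4.61 FPKM in knockout and 53.0 ± 13.1 FPKM in wild type (SD, n = 3 each; limma, adjusted p = 0.00554), and it was called with any 1 library left out. Pnpla2, the main triglyceride lipase of the droplet, was at 27.3, 29.9 and 33.5 FPKM in knockout and 19.5, 18.6 and 25.7 FPKM in wild type. Its groups did not overlap, and it was not called (limma, adjusted p = 0.0720). Abhd5, the activator of that lipase and a binding partner of PNPLA3, averaged 12.5 ± 1.76 FPKM in knockout and 10.2 ± 1.55 FPKM in wild type (limma, adjusted p = 0.246). Pnpla1 and Pnpla5 were listed at 0 in every library. Samm50, a mitochondrial outer membrane protein gene 5 kb from Pnpla3 that lies at the same human locus, averaged 60.3 FPKM in knockout and 50.4 FPKM in wild type without overlap of the groups (limma, adjusted p = 0.125).

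Tm6sf2 (chromosome 8, 70072924 to 70080066, plus strand) encodes a membrane protein of the endoplasmic reticulum and Golgi that is needed for lipid-rich VLDL. It was at 19.5, 13.3 and 14.5 FPKM in KO1 to KO3 and at 18.5, 17.8 and 15.9 FPKM in wild type. KO1 was the highest of all libraries and the other knockout libraries were the lowest, so the groups overlapped. The log2 fold change was -0.15 ± 0.142 (SE; limma, adjusted p = 0.547; exact permutation p = 0.5), with a 95% interval of the fold from 0.717 to 1.13. Without KO1, the library with the fewest reads, the log2 fold change was -0.30 (adjusted p = 0.134). Its neighbours Sugp1 and Hapln4 were not called (limma, adjusted p = 0.488 and 0.439).

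Of 17 tested genes of VLDL assembly, 1 was higher and none was lower, with a median log2 fold change of 0.13. The called gene was Sar1a, a GTPase of transport vesicles leaving the endoplasmic reticulum, at 38.7 ± 3.84 FPKM in knockout and 29.1 ± 0.817 FPKM in wild type (SD, n = 3 each; limma, adjusted p = 0.0471). This is 5.9% of the list, near the 6.90% of all tested genes called in either direction. That call held without KO1 and was lost when any other library was left out, after median-of-ratios scaling (adjusted p = 0.0621) and after quantile normalization (0.0694). Apob, the structural protein of VLDL, averaged 865 ± 31.4 FPKM in knockout and 797 ± 116 FPKM in wild type (limma, adjusted p = 0.576). Mttp, which transfers lipid to it, was at 108, 123 and 126 FPKM in knockout and 111, 92.4 and 99.8 FPKM in wild type (limma, adjusted p = 0.213).

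Mboat7 (chromosome 7, 3677789 to 3693523, minus strand) was at 15.4, 15.3 and 14.0 FPKM in KO1 to KO3 and at 11.4, 11.0 and 11.8 FPKM in wild type. The groups did not overlap. The means were 14.9 ± 0.812 FPKM in knockout and 11.4 ± 0.361 FPKM in wild type (SD, n = 3 each). The log2 fold change was 0.36 ± 0.0814 (SE; limma, adjusted p = 0.0440; exact permutation p = 0.1), a fold of 1.28 with a 95% interval from 1.12 to 1.46. This call was close to the threshold and was lost when any 1 library was left out, the adjusted p then lying between 0.0703 and 0.143. It was also lost after median-of-ratios scaling (adjusted p = 0.0981) and quantile normalization (0.0926).

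Mboat7 lies on the chromosome of Arrb1, 95.8 Mb away. Its exons overlap those of Tsen34, a tRNA splicing gene on the opposite strand, and 2.06% of its runs of 50 bases are shared with that gene. No source used here says if strand was kept, and without it reads in the overlap cannot be told apart. Tsen34 averaged 20.5 FPKM in knockout and 20.5 FPKM in wild type (limma, adjusted p = 0.973). Tmc4, the next gene on the other side and part of the same human risk locus, was below the filter, at 0.600 FPKM in knockout and 0.610 FPKM in wild type.

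Of 15 tested genes of phospholipid remodelling, 3 were higher and none was lower (20% called, median log2 fold change 0.30). Beside Mboat7 these were Pla2g6, a phospholipase A2, at 17.3 ± 2.48 FPKM in knockout and 8.24 ± 1.35 FPKM in wild type, and Agpat3, an acyltransferase of lysophospholipids, at 73.4 ± 1.22 FPKM in knockout and 50.3 ± 6.29 FPKM in wild type (SD, n = 3 each; limma, adjusted p = 0.0114 and 0.0271). Lpcat3, which adds arachidonic acid to lysophosphatidylcholine, averaged 34.2 ± 6.74 FPKM in knockout and 28.6 ± 3.70 FPKM in wild type (limma, adjusted p = 0.378). Pla2g6 passed with any 1 library left out. Agpat3 passed only without WT3, and then Mboat7 did not.

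Gckr (chromosome 5, 31297443 to 31327314, plus strand) was at 51.4, 45.5 and 41.2 FPKM in KO1 to KO3 and at 35.2, 38.3 and 40.4 FPKM in wild type. The groups were narrowly apart, with KO3 just above WT3. The log2 fold change was 0.27 ± 0.105 and did not pass (SE; limma, adjusted p = 0.163; exact permutation p = 0.1), with a 95% interval of the fold from 1.02 to 1.43. Of its neighbours, Fndc4, 1.4 kb away, averaged 11.7 ± 0.932 FPKM in knockout and 14.6 ± 0.628 FPKM in wild type, with all knockout values below wild type and no call (limma, adjusted p = 0.0909), and Zfp512 was not called either (adjusted p = 0.136).

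Of 18 tested genes of glucose handling and the ChREBP pathway, 2 were higher and 1 was lower (16.7% called, median log2 fold change 0.34). ChREBP, the product of Mlxipl, is the transcription factor that responds to sugar phosphates. Mlxipl averaged 24.6 ± 1.71 FPKM in knockout and 21.8 ± 4.01 FPKM in wild type (SD, n = 3 each; limma, adjusted p = 0.445). Thrsp, a lipogenic gene, was at 107 ± 27.2 FPKM in knockout and 55.0 ± 7.62 FPKM in wild type, and Me1, the malic enzyme, at 62.1 ± 7.70 FPKM in knockout and 33.2 ± 10.3 FPKM in wild type (limma, adjusted p = 0.0275 and 0.0455). Acly, which makes cytosolic acetyl-CoA, fell to 40.1 ± 9.31 FPKM in knockout, against 81.9 ± 9.85 FPKM in wild type (limma, adjusted p = 0.0164). Thrsp lost its call without KO2, WT2 or WT3, Me1 unless WT1 was the one left out, and Acly without KO2 or WT2. Me1 was also not called after median-of-ratios scaling or quantile normalization. As TPM the list had 6 higher genes.

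Ppp1r3b (chromosome 8, 35375739 to 35388139, plus strand) was at 73.3, 62.3 and 48.4 FPKM in KO1 to KO3 and at 91.9, 70.6 and 57.1 FPKM in wild type. The spread within each group exceeded the difference between them, with coefficients of variation of 20.4% in knockout and 24.0% in wild type. The log2 fold change was -0.24 ± 0.201 (SE; limma, adjusted p = 0.486; exact permutation p = 0.5), with a 95% interval of the fold from 0.611 to 1.17. With replicate number as a further term the SE was 0.0989, and the gene was still not called (limma, adjusted p = 0.204). Ppp1r3c, which encodes another glycogen-targeting subunit of the phosphatase, was also high in replicate 1 of both groups. It was at 38.2, 28.8 and 13.7 FPKM in knockout and 61.9, 22.8 and 11.4 FPKM in wild type (limma, adjusted p = 0.975). The neighbours of Ppp1r3b, Tnks and Eri1, were not called (limma, adjusted p = 0.864 and 0.469).

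**Figure D3:**
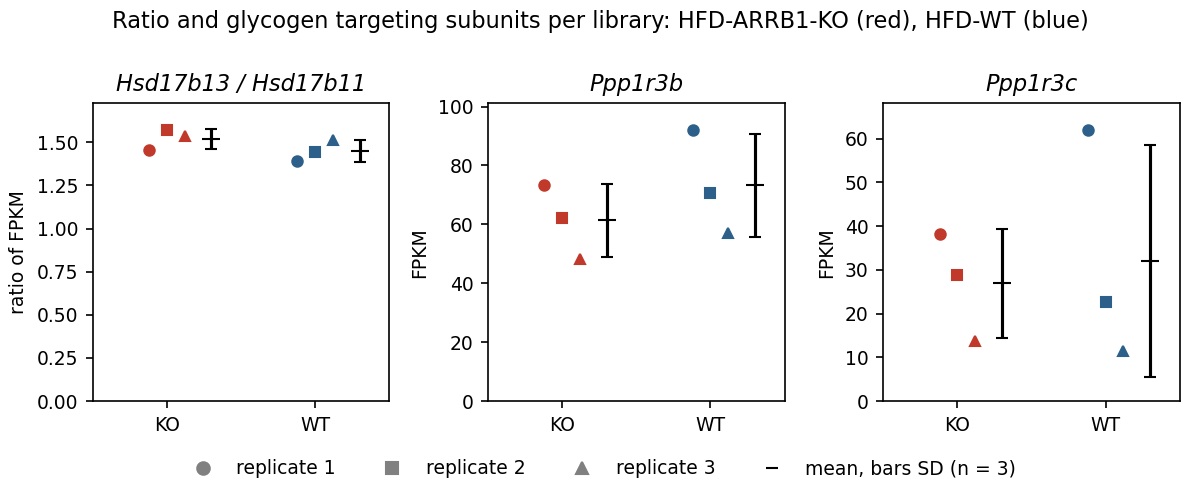
From left to right, the ratio of Hsd17b13 to Hsd17b11 FPKM and the FPKM of Ppp1r3b and Ppp1r3c in each library, with knockout in red, wild type in blue and the mean with SD (n = 3) in black. The groups overlap in all 3 panels, and replicate 1 is the highest library of each group for Ppp1r3b and Ppp1r3c.

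Of 23 tested glycogen genes, 4 were higher and none was lower, which is 17.4% against 6.90% of all tested genes. The median log2 fold change was 0.14, against 0.075 over all tested genes. Gys2, the liver glycogen synthase on which the PPP1R3B complex acts, was at 52.0, 60.3 and 53.7 FPKM in knockout and 38.7, 34.9 and 42.8 FPKM in wild type, with no overlap (limma, adjusted p = 0.0336). Gbe1, the branching enzyme, was at 73.3 ± 9.93 FPKM in knockout and 42.7 ± 5.42 FPKM in wild type (SD, n = 3 each; limma, adjusted p = 0.0187). Gsk3a, a kinase that inhibits glycogen synthase, and Slc37a4, the glucose 6-phosphate transporter, were also higher, with log2 fold changes of 0.38 and 0.52 (limma, adjusted p = 0.0390 and 0.0404). Pygl, the liver glycogen phosphorylase, averaged 187 ± 11.5 FPKM in knockout and 160 ± 10.2 FPKM in wild type (limma, adjusted p = 0.185). Gbe1 lost its call without KO2 or WT2, Gys2 and Slc37a4 unless WT3 was the one left out, and Gsk3a whichever library was left out. Gsk3a and Slc37a4 were also not called after median-of-ratios scaling or quantile normalization.

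**Figure D4:**
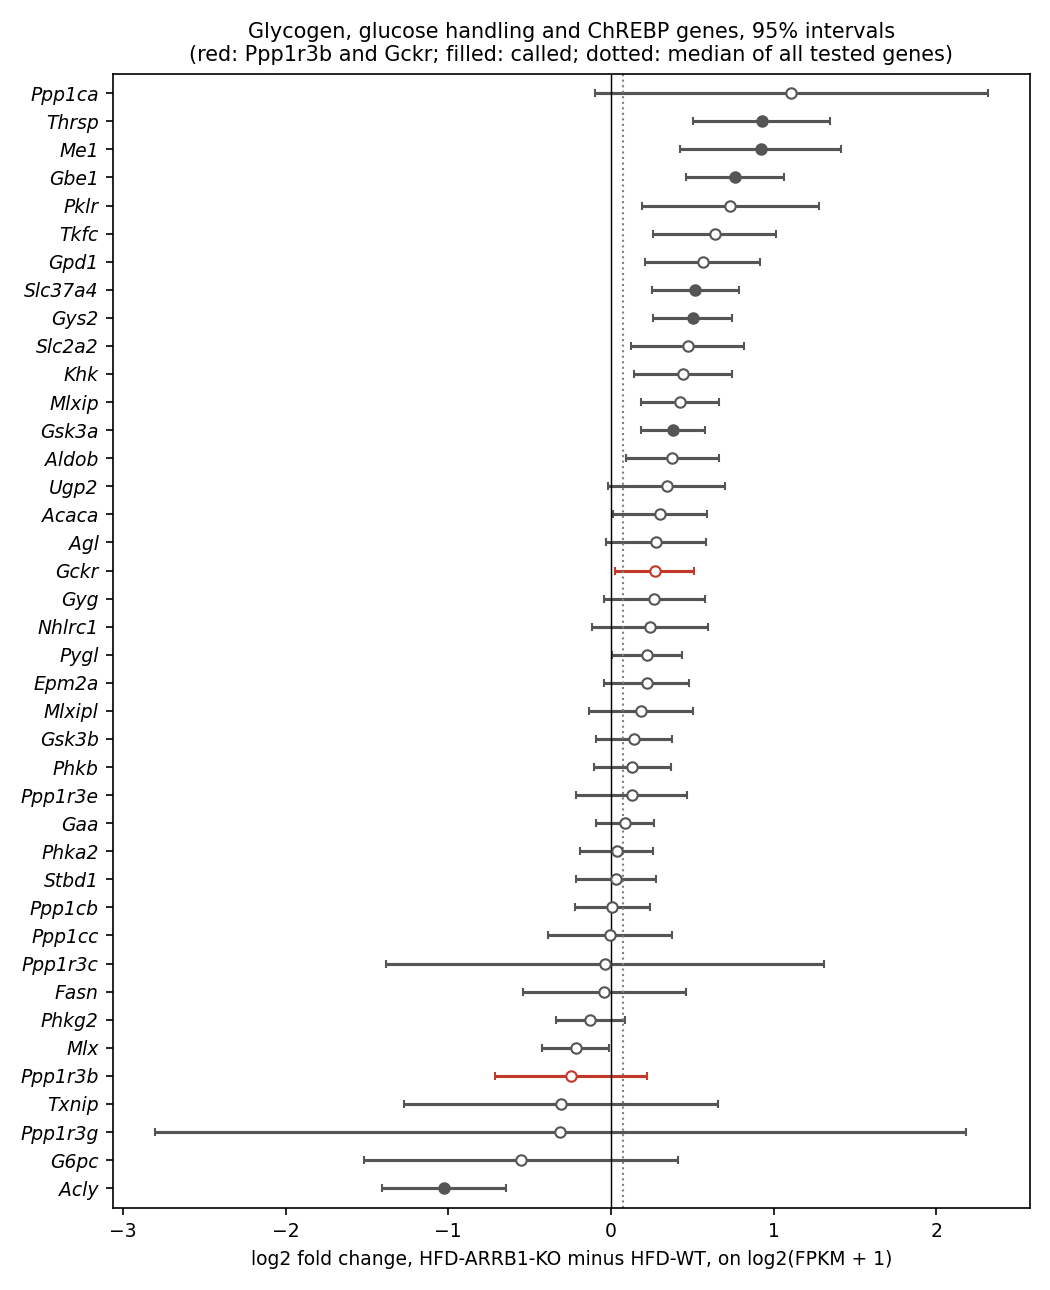
Log2 fold change (knockout minus wild type, on log2(FPKM + 1)) with 95% interval for tested genes of the glycogen list and of the list of glucose handling and the ChREBP pathway. Filled points are called, red marks Ppp1r3b at -0.24 and Gckr at 0.27, and the dotted line is the median of all tested genes at 0.075.

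Ordered by level per length in knockout, the members ran Hsd17b13, Hsd17b11, Ppp1r3b, Gckr, Tm6sf2, Mboat7 and Pnpla3, and the same order held in wild type. In knockout the ranges of Ppp1r3b and Gckr overlapped, as did those of Tm6sf2 and Mboat7. In wild type the ranges of Hsd17b11 and Ppp1r3b overlapped. Hsd17b13, Hsd17b11 and Ppp1r3b were in wild type more abundant than 96%, 94.4% and 92.6% of the tested genes, and Mboat7 than 65%.

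**Figure D5:**
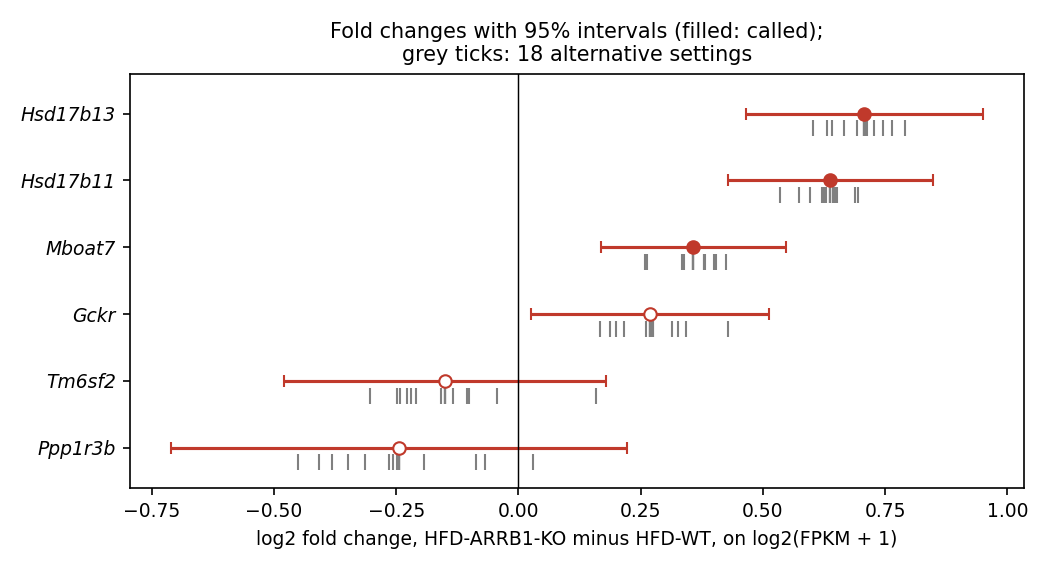
Log2 fold change (knockout minus wild type, on log2(FPKM + 1)) of the 6 tested members with 95% intervals, filled where called, and grey ticks for the same value under each of 18 alternative settings. The ticks of Hsd17b13 run from 0.60 to 0.79 and those of Mboat7 from 0.26 to 0.42. For Tm6sf2 and Ppp1r3b the tick with KO1 as the only knockout library is above 0, and all other ticks are below it.

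Across the 6 libraries, the log2 levels of Hsd17b13, Hsd17b11 and Mboat7 moved together, with Pearson r of 0.99 between the first pair and of 0.96 and 0.97 with Mboat7. Tm6sf2 and Ppp1r3b had r of 0.72 with each other and r from -0.55 to -0.32 with those 3 genes. These correlations describe 6 points that share the genotype difference, so they are a description. Among 10632 other tested genes, those most like Hsd17b13 were Tsku (r = 0.998), a secreted protein gene, and Dus1l (r = 0.997), and 434 genes had an r of at least 0.95. Those most like Hsd17b11 were 1600012H06Rik (r = 0.997) and Hsd17b4 (r = 0.996), and 426 genes had an r of at least 0.95 with it. Cacfd1 and Cep170b were most like Mboat7, Asb8 and Mark3 most like Gckr, Efcab2 and Tfr2 most like Tm6sf2, and Psmb10 and Narf most like Ppp1r3b, with r from 0.975 to 0.998.

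Of 20 tested regulators of the members and their pathways, 2 were higher and 3 were lower (25% called, median log2 fold change 0.13). Ppara, the nuclear receptor of fatty acid oxidation, was at 61.6 ± 6.94 FPKM in knockout and 38.8 ± 5.72 FPKM in wild type, and Insig2, which retains the SREBP complex in the endoplasmic reticulum, at 226 ± 36.2 FPKM in knockout and 132 ± 24.1 FPKM in wild type (SD, n = 3 each; limma, adjusted p = 0.0275 and 0.0381). Insig1, a target of SREBPs that also retains them, fell to 72.1 ± 12.9 FPKM in knockout, against 238 ± 49.8 FPKM in wild type (limma, adjusted p = 0.00502). Srebf2 and Scap, the genes of a sterol-regulated transcription factor and of its escort, fell by 0.59 and 0.39 on the log2 scale (limma, adjusted p = 0.0336 and 0.0323). Srebf1 was at 43.4, 55.9 and 59.3 FPKM in knockout and 78.4, 70.7 and 69.5 FPKM in wild type, apart but not called (limma, adjusted p = 0.0709). After median-of-ratios scaling Srebf1 was called (adjusted p = 0.0373). Nr1h3, which encodes the oxysterol receptor LXR-alpha, averaged 61.5 ± 2.96 FPKM in knockout and 64.1 ± 8.46 FPKM in wild type (limma, adjusted p = 0.808). Insig1 passed with any 1 library left out. Ppara lost its call without KO2, KO3, WT2 or WT3, Insig2 without KO2, KO3, WT1 or WT2, Srebf2 unless WT3 was the one left out, and Scap unless KO1 was. Insig2 was also not called after median-of-ratios scaling.

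Among orthologs of other human fatty liver loci, 31 of 35 listed were tested, 2 were higher and none was lower, which is 6.5% against 6.90% of all tested genes called in either direction (median log2 fold change 0.18). These were Abcb4, the phospholipid exporter of bile, at 168 ± 26.3 FPKM in knockout and 99.5 ± 8.41 FPKM in wild type (SD, n = 3 each; limma, adjusted p = 0.0221), and Ppara. Gpam, the first acyltransferase of triglyceride synthesis, averaged 56.0 ± 7.12 FPKM in knockout and 52.4 ± 11.4 FPKM in wild type (limma, adjusted p = 0.717). Abcb4 lost its call without KO2, KO3, WT1 or WT2, and the list had 3 higher genes without KO1.

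Markers of other cells were also detected. Of 7 tested markers of lipid-associated macrophages, 3 were higher (Gpnmb, Mmp12 and Lgals3), and the summed level of all 8 listed was 74.7 to 182 FPKM in knockout and 49.0 to 83.0 FPKM in wild type. Stellate cell markers summed to 209 to 302 FPKM in knockout and 192 to 216 FPKM in wild type, with 3 of 10 higher, the collagen genes Col1a1, Col1a2 and Col3a1. Kupffer cell markers summed to 334 to 418 FPKM in knockout and 319 to 348 FPKM in wild type, with 1 of 10 lower. Sinusoidal endothelial markers summed to 128 to 148 FPKM in knockout and 115 to 135 FPKM in wild type, with 2 of 8 higher. Cholangiocyte markers summed to 36.9 to 97.9 FPKM in knockout and 30.0 to 60.6 FPKM in wild type, and of the 4 tested none was called. That list shares Spp1 with the list of lipid-associated macrophages, so the 2 sums are not independent. Of all tested genes, 5.30% were called higher and 1.60% lower. Median log2 fold changes were 0.80 for lipid-associated macrophages, 0.34 for stellate cells and 0.15 for Kupffer cells. They were 0.23 for sinusoidal endothelium and 0.061 for cholangiocytes, against 0.075 over all tested genes. None of the listed markers of these cells was at 0 in all libraries, and T and B cell markers summed to at most 2.74 FPKM. Their part in the results was not tested.

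Hsd17b13 is also a marker of periportal hepatocytes, the cells near the portal vein. Of 10 tested periportal markers it was the only one called higher, while Cps1, Etnppl and Hal were lower (limma, adjusted p = 0.00794, 0.0343 and 0.0491). The median log2 fold change was -0.34, in which Hsd17b13 itself counts. Of 10 pericentral markers 1, the ammonium transporter gene Rhbg, was higher, and the median was 0.21. Apart from Hsd17b13, how the calls of cell markers fare with a library left out or other scaling is not reported here.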

How the data were processed

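RNA of 3 HFD-ARRB1-KO and 3 HFD-WT libraries was sequenced after Trizol extraction and Illumina TruSeq library preparation, per the labels' protocols. The authors deposited 1 table of FPKM values per gene and library. Bowtie 0.12.2, HISAT2, mm8 and mm10 are named per the submitters' processing notes. What each was used for, the annotation and how multiply matching reads were counted are not stated in those sources.

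Whole reads were recovered from the FPKM steps for 17549 of 17549 genes above 0 in at least 4 libraries. The tolerance was 0.001 reads plus 5e-08 times the count, capped at 0.05 reads. Counts up to 2000000 were searched, and at high counts whole numbers can be met without the true step. This share is therefore no check of the steps. In a separate search of 2000 genes, limited to far lower counts, 96.3% were whole with the recovered steps. With library depths shifted at random, 0% were whole. That search does not check genes with higher counts.

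The 10633 genes averaging 1 FPKM or more over all libraries entered limma 3.58.1 (R 4.3.3) as log2(FPKM + 1), with eBayes trend, genotype as the only term and Benjamini-Hochberg adjustment over all tested genes, two-sided. Calls needed an adjusted p below 0.05. On that scale the fold change of a low gene is understated. The fit was tested on simulated data. No label says that replicates are separate animals, so p-values reflect only how these libraries vary, which may be technical. Positions are from GENCODE vM21 (GRCm38), matched by symbol. Other tests used Python 3.11.15.

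The members, gene lists and tests were chosen with earlier results of these data known. Genes named are the members, fixed partners, called members of the lists (the 4 with the smallest p where more than 6), the 2 genes most like each member and its neighbours. Samm50 and Tsen34 are such neighbours, and other genes at 0 or outside the rule were named after their values were seen. Some genes under this rule are not reported here. The alternatives were other pseudocounts, filters, scalings and variance models, a replicate block, voom on recovered reads and each library left out.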

Additional observations from a re-analysis of the deposited data

How the results depend on the processing

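No result changed direction among the 6 tested members and the ratio of Hsd17b13 to Hsd17b11 under the alternatives chosen at the outset. With KO1 as the only knockout library, an alternative added after seeing the data because the other genotype labels name ARRB2 and ARRB3 and one that takes KO1 to vary like the wild-type libraries, the log2 fold change was 0.63 for Hsd17b13, 0.62 for Hsd17b11 and 0.40 for Mboat7, none called, and it turned to 0.16 for Tm6sf2 and 0.030 for Ppp1r3b, with 0 members, 30 genes higher and 42 lower. With no filter 1 member was called, Hsd17b13 (0.71) and Mboat7 (0.36) were not, and 88 genes were higher and 58 lower. Mboat7 was also not called after median-of-ratios scaling (0.26), quantile normalization (0.26) or eBayes without trend (0.36). Genes higher, 564 as reported, numbered 990 as TPM, 346 by median-of-ratios and 371 by quantile scaling, and the share of calls that were higher was 76.8%, 85.2%, 59.9% and 64.5% in that order. The median log2 fold change of all genes was 0.075 as deposited and -0.012 after median-of-ratios scaling. With 1 library left out, the log2 fold change ran from 0.64 to 0.79 for Hsd17b13, 0.57 to 0.69 for Hsd17b11 and 0.33 to 0.40 for Mboat7, members higher from 0 to 2, genes higher from 94 to 422 and genes lower from 54 to 119.

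The replicate numbers were not taken as pairs. Deviations of same-numbered libraries correlated at 0.17, -0.0625 and 0.0966, and those of differently numbered libraries at -0.243 to 0.125. With 3 libraries per group these values cannot decide if the replicates were paired. With the replicate block, 280 genes were higher and 122 lower, and of the member calls 1 changed, Mboat7 being not called (0.36, adjusted p = 0.0987). With that block the fed and fasting list had 1 gene higher and 3 lower, against 3 and 0 without it, the clock list 1 and 1, against 2 and 2, and the VLDL list 0 higher, against 1. Pnpla3 could be fitted only with no filter. Its 1 to 10 reads per library, and the shallower KO1, limit what can be seen.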

Other observations

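Of 13 tested clock genes, 2 were higher and 2 were lower in knockout (30.8% called, median log2 fold change 0.059). Dbp, an output gene of the clock, was at 4.76 ± 1.42 FPKM in knockout and 0.926 ± 0.533 FPKM in wild type, and Nr1d1, a repressor of the clock, at 36.8 ± 3.43 FPKM in knockout and 27.3 ± 0.160 FPKM in wild type (SD, n = 3 each; limma, adjusted p = 0.0133 and 0.0405). Arntl, a core activator, was at 4.55 ± 0.608 FPKM in knockout and 6.69 ± 0.396 FPKM in wild type, and Cry1, a core repressor, at 6.16 ± 0.405 FPKM in knockout and 9.93 ± 0.822 FPKM in wild type (limma, adjusted p = 0.0405 and 0.0150). Dbp and Cry1 lost their calls without KO2 or WT2, Arntl whichever library was left out, and Nr1d1 unless KO3 was. Nr1d1 was also not called after median-of-ratios scaling (adjusted p = 0.0839) or quantile normalization (0.0925).

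Of 13 tested fed and fasting genes, 3 were higher and none was lower (23.1% called), while the median log2 fold change was -0.42. Cpt1a, the entry enzyme of mitochondrial fatty acid oxidation, was at 186 ± 18.7 FPKM in knockout and 118 ± 13.2 FPKM in wild type (SD, n = 3 each; limma, adjusted p = 0.0215). Trib3, a stress-induced pseudokinase gene, was at 7.74 ± 0.432 FPKM in knockout and 2.44 ± 1.14 FPKM in wild type (limma, adjusted p = 0.0191). The list had 0 higher genes without KO2 or KO3 and 1 without WT2. After median-of-ratios scaling 3 were higher and 1 was lower. Among 17 tested genes of a lipid droplet list, 7 were higher and 1 was lower (47.1% called, median log2 fold change 0.33). Leaving out KO2 left a higher count of 3, and WT2 of 4.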
